A study of Mus musculus with 4 samples.

Results

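The transcripts of 10 secreted ligands of the bone morphogenetic protein (BMP) and growth differentiation factor (GDF) families were followed in cultured mouse muscle stem cells: Bmp2, Bmp3, Bmp4, Bmp5, Bmp6, Bmp7, Gdf5, Gdf6, Gdf10 and Gdf15. They were picked by gene name, and each of the 10 names had 1 entry among the 55267 entries of the expression table. The cells, adult muscle stem cells (MuSCs) sorted for EGFP from C57BL/6N(Tg(Pax7-EGFP)Tajb) mice in which EGFP marks Pax7-expressing cells, came from female animals 9 weeks old. After expansion in culture, both groups went without serum for 6 h in the presence of soluble BMPR-1A-Fc, a receptor decoy that captures BMPs in the medium, at 200 ng/mL. The BMP6 group (2 libraries) then received BMP6 protein at 100 ng/mL for 1 h, and the control group (2 libraries) received the vehicle, 4 mM HCl with 0.1% BSA, for the same time. The question addressed here was how much of each ligand's mRNA the cells held, and whether it moved within 1 h of exposure to BMP6. Both groups had met the receptor decoy, so no library describes cells left to their own ligands.

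BMPs are made as precursors that pair through disulphide bonds, are cut by proprotein convertases such as furin, and are released as dimers. A dimer gathers type I and type II serine/threonine kinase receptors, which phosphorylate SMAD1, SMAD5 and SMAD9, and these enter the nucleus with SMAD4 to switch on genes such as the Id family. In muscle, BMP signalling keeps MuSCs and myoblasts dividing and holds back differentiation, and ligands can come from the muscle cells themselves or from their neighbours. BMP2 and BMP4 form one close pair and BMP5, BMP6 and BMP7 another subgroup, GDF5 and GDF6 act in joints and tendons, and BMP3 and GDF10 (also called BMP3B) are atypical members. GDF15 is a distant relative that is induced by cellular stress and signals through GFRAL and RET, mainly in the hindbrain.

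The 4 libraries were similar in depth, with 108138615 to 111966627 reads rebuilt from transcript coverage and 13002 to 13203 entries at or above a value of 1 on the transcripts-per-million (TPM) scale. Muscle stem cell and myoblast markers summed to between 6701 and 7662 TPM in each library, led by Myog at 4400 to 5472 TPM. Myog marks the onset of differentiation, so the sum does not measure stem cell identity. The stem cell marker Pax7 stood at 8.29 and 10.7 TPM in the controls and at 9.92 and 11.7 TPM after BMP6. Of these 8 markers 0 passed the adjusted p, and with the replicate number as a block 1 did: Des, which encodes desmin, stood at 1120 and 955 TPM in the controls and at 952 and 807 TPM after BMP6 (log2 difference -0.24, blocked fit, adjusted p = 0.0312). The marker sums were 1.43 to 2.38 TPM for endothelial cells, 1.38 to 1.91 TPM for immune cells and 0.386 to 0.601 TPM for Schwann cells. Fibroblast markers summed to 310 to 430 TPM, most of it collagen transcripts, and pericyte or smooth muscle markers to 2916 to 3260 TPM, most of it Acta2. Early BMP target genes were mostly higher after BMP6, on a list chosen with earlier results of these data known. Of 13 such genes 12 were tested, 8 of them were called higher (Id1, Id2, Id3, Smad7, Atoh8, Hey1, Skil and Dlx2) and 0 lower. The median log2 difference of the 12 was 1.88, against 0.02 over all entries tested. With the block Id4, Smad6 and Msx1 passed the adjusted p as well. Id2 stood at 202 and 219 TPM in the controls and at 569 and 447 TPM after BMP6, and Id3 at 127 and 158 against 841 and 730 TPM. Both encode inhibitors of basic helix-loop-helix factors.

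Of the 10 ligands, 6 were read in at least 1 library and 4 were read in every library, and Gdf15 stood well above the rest. In descending order of the control mean, Gdf15 had 10.0 ± 3.00 TPM, Bmp4 1.10 ± 0.589 TPM, Bmp6 0.956 ± 0.125 TPM, Bmp2 0.130 ± 0.0528 TPM, Gdf6 0.0804 ± 0.0128 TPM and Bmp5 0.0238 ± 0.00967 TPM (SD, n = 2). Gdf15 was above Bmp4 in 4 of 4 libraries, Bmp6 above Bmp2 in 4 of 4 and Bmp2 above Gdf6 in 4 of 4. Bmp4 and Bmp6 did not separate, since their control ranges overlapped and each was the higher of the pair in 2 of 4 libraries. The remaining 4, Bmp3, Bmp7, Gdf5 and Gdf10, were listed at 0 TPM in every library. All 10 together made up 9.07 to 15.2 TPM, and without Gdf15 the sum was 1.74 to 3.05 TPM.

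**Figure D1:**
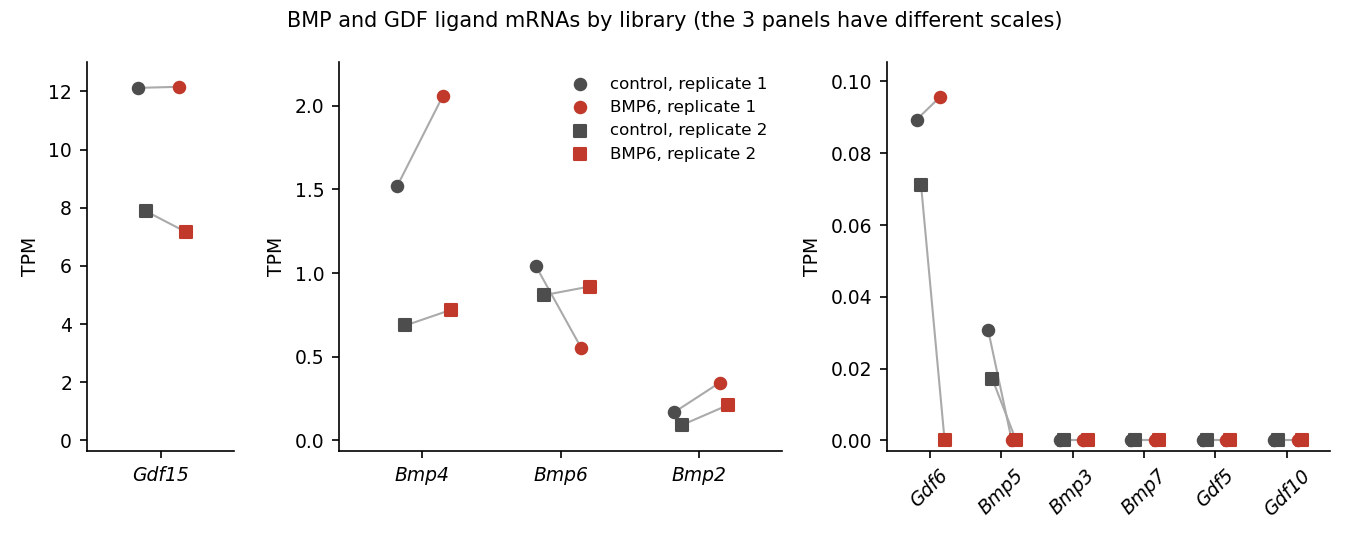
Level of each ligand in each library, in TPM on linear axes that differ between the 3 panels; grey points are controls, red points are BMP6-treated, circles are replicate 1, squares are replicate 2, and a line joins libraries of the same replicate number. Gdf15 and Bmp4 differed more between replicates than between groups, both BMP6 points of Bmp2 lay above both control points, and Bmp3, Bmp7, Gdf5 and Gdf10 lay at 0.

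No ligand was called changed by BMP6, a call being a difference of at least 1 on the log2(TPM + 1) scale in either direction (2-fold in an abundant gene, more in a low one) with an adjusted p under 0.1 in limma. Over all 13128 entries tested, 24 were called higher, which is 0.183%, and 0 were called lower. Without the fold condition, 32 entries passed the adjusted p (0.244% of those tested, with 0.236% higher and 0.00762% lower), and 420 had an unadjusted p under 0.05 (3.2%). Only 2 of the 10 ligands, Gdf15 and Bmp4, had a mean of at least 1 TPM over the 4 libraries and so entered the test. At these shares 0 calls among 2 is no result about the ligands. With the replicate block, 36 of the 13128 entries were called higher and 1 lower. How many passed the adjusted p alone in that fit was not counted. Genes named as passing it with the block thus lack a share to be judged against. These are Des, Id4, Smad6 and Msx1 above and Hmox1 and Nog below. With 2 libraries in each group, a two-sided permutation test that ignores the pairs has 3 possible splits and cannot go below p = 0.333. Single values below were therefore given no p of their own outside the fit.

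Gdf15, the stress-induced ligand, was the most abundant of the 10. It stood at 12.1 and 7.88 TPM in the controls and at 12.2 and 7.16 TPM in the BMP6 libraries, in the order replicate 1, replicate 2. The groups overlapped almost fully, and within the pairs of the same replicate number the log2(TPM + 1) difference was 0.00 and -0.12. The fitted log2 difference was -0.06 (SE 0.29, 95% interval -0.76 to 0.64, adjusted p = 1.00). With the replicate number as a block the interval narrowed to -0.28 to 0.16 (adjusted p = 0.836), where doubling the control mean would give 0.93 and halving it -0.87. Rebuilt reads were 664 to 1195 per library, so the counting error of reads was small beside the difference between replicates. Without molecular identifiers, copies of one molecule are counted among these reads, and the number of molecules is not known.

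All Gdf15 reads were assigned to one transcript, ENSMUST00000003808.8, of 2 exons on the minus strand of chromosome 8 (GRCm39). Its second exon had a coverage of 64.7 to 121 reads per base and its first exon 19.4 to 33.9. The 150 bases just before its first base (chr8:71084746-71084895, minus strand) are given here because the position of the start decides which promoter the reads refer to. Capitals mark a match to CAGAC or its reverse complement GTCTG, the core that SMAD proteins can bind, which 27.5% of the corresponding windows of 21770 protein-coding genes hold on either strand.
Gdf15: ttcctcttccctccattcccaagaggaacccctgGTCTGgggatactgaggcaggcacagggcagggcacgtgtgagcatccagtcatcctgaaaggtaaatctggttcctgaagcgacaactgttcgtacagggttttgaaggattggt
The match starts 116 bases before the transcript. A pair of further motifs, GGCGCC (bound by phosphorylated SMAD1 and SMAD5, in 5.94% of all windows) and TGATGNAA (the core of sites bound by ATF4, in 2.24%), were searched on both strands and were not in the window, which says only that these letters are not there.

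Bmp4, a typical BMP made by many mesenchymal cells, was the second ligand tested. Its levels were 1.52 and 0.687 TPM in the controls and 2.06 and 0.781 TPM after BMP6, from 87.3 to 266 rebuilt reads per library. Each BMP6 library was a little above its own control, by 0.28 and 0.08 on the log2(TPM + 1) scale, as were 25.5% of the entries read in any library, while the replicate 2 BMP6 library lay below the replicate 1 control, so the groups overlapped. The fitted log2 difference was 0.18 (SE 0.32, 95% interval -0.60 to 0.95, adjusted p = 1.00). With the replicate block it was 0.18 (SE 0.14, 95% interval -0.14 to 0.50, adjusted p = 0.635). Both signs remained within both intervals, and 1 library decided the sign without the block: leaving out BMP6 replicate 1 gave -0.21 and leaving out control replicate 2 gave -0.11.

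The Bmp4 reads also fell on a single transcript, ENSMUST00000074077.12, on the minus strand of chromosome 14. Its exons 2 to 4 had a coverage of 5.08 to 15.2 reads per base, and exon 1 had 0.268 to 3.48. The window before its start (chr14:46628127-46628276, minus strand), shown because Bmp4 and Gdf15 differed alike between replicates, held none of the 3 motifs.
Bmp4: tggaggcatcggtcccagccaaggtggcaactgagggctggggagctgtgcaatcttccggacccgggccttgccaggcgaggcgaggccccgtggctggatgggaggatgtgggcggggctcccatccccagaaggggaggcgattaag
It was richer in G and C than that of Gdf15, at 68.0% against 53.3%, where the median of all windows was 53.3%.

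**Figure D2:**
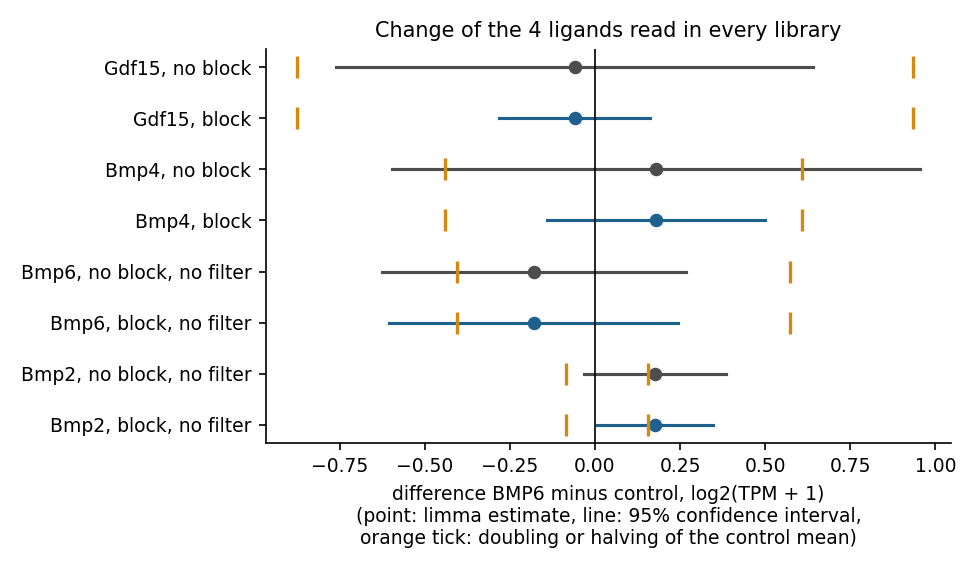
Difference between BMP6 and control libraries on the log2(TPM + 1) scale for the 4 ligands read in every library, with 95% confidence intervals from limma; grey lines are fits without and blue lines fits with the replicate number as a block, and orange ticks mark what doubling or halving the control mean gives on this scale, which is smaller for low genes (0.93 and -0.87 for Gdf15, 0.61 and -0.44 for Bmp4, 0.57 and -0.40 for Bmp6, 0.16 and -0.09 for Bmp2). Of the 8 intervals, 7 include 0 and that of Bmp2 with the block starts at 0.01, and a tick lies within both Bmp2 intervals (doubling), both Bmp6 intervals (halving) and the unblocked one of Bmp4 (both).

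For Gdf15 and Bmp4 the difference between replicates was larger than that between groups. Gdf15 was 1.54 times higher in replicate 1 than in replicate 2 of the controls and 1.70 times higher in the BMP6 group. Bmp4 was higher in replicate 1 by 2.21 and 2.64 times. Such an excess in both groups, at least 0.5 on the log2(TPM + 1) scale, was found for 124 of the 13128 entries tested (0.945%). Entries lower in replicate 1 by that much were not counted. Bmp2 and Gdf6 were also higher in replicate 1 of both groups, and Bmp6 was not, at 1.04 against 0.868 TPM in the controls and 0.552 against 0.920 TPM after BMP6. Of the named genes tested, those closest to Gdf15 over the 4 libraries, by Euclidean distance of log2(TPM + 1), were Rnf113a1 (distance 0.17), Egfl7 (0.26) and Sh3bp5 (0.29). This measure joins level and pattern over only 4 values and was given no test.

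Because GDF15 is induced by stress, 12 genes of the integrated stress response and of the p53 pathway were read beside it. All 12 were tested, 3 lay above and 9 below 0 after BMP6 with a median log2 difference of -0.13 (0.02 over all entries), and 0 passed the adjusted p. With the block, 1 passed it: Hmox1, which encodes the haem-degrading enzyme haem oxygenase 1, was lower after BMP6 by 0.32 on the log2 scale (adjusted p = 0.0769). Asns, asparagine synthetase, stood at 1043 and 913 TPM in the controls and at 1046 and 812 TPM after BMP6. Cdkn1a, the p53-responsive inhibitor of cyclin-dependent kinases, stood at 1357 and 1586 TPM in the controls and at 1468 and 1741 TPM after BMP6.

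Between replicates the genes of this list went both ways. Higher in replicate 1 of both groups were 7 of the 12, namely Atf3, Atf4, Trib3, Chac1, Asns, Sesn2 and Ddit4, all known to respond to ATF4 or to encode it. Ddit3, which encodes CHOP and also responds to ATF4, was mixed, at 12.8 and 14.0 TPM in the controls and 11.9 and 9.98 TPM after BMP6, as was Hmox1. Trib3, a pseudokinase induced by ATF4 and CHOP, had 66.5 and 23.6 TPM in the controls and 70.3 and 16.7 TPM after BMP6. Sesn2, a stress-induced regulator of mTORC1, had 5.35 and 2.58 TPM in the controls and 5.60 and 1.99 TPM after BMP6. Lower in replicate 1 of both groups were 3 of the 12, Cdkn1a, Mdm2 and Ccng1, which are among the p53 targets of the list. Over all entries tested, 30.7% were higher and 40.7% lower in replicate 1 of both groups. These genes were named after their values were seen. Cell type markers also differed between replicates, and not all in one direction. Of the 8 muscle markers 5 were higher in replicate 1 of both groups (Myf5, Cdh15, Itga7, Des and Vcam1) and 2 lower (Pax7 and Myog). Of the 3 pericyte or smooth muscle markers tested, 0 were higher, 2 lower and 1 mixed. The 1 endothelial and the 1 immune marker tested were mixed. Of the fibroblast markers, all 6 that were tested were higher in replicate 1 of both groups and the sum of all 8 was 428 and 353 TPM in the controls and 430 and 310 TPM after BMP6. Col1a2, the most abundant, had 229 and 206 TPM in the controls and 240 and 186 TPM after BMP6, and Col3a1 had 109 and 79.0 TPM in the controls and 106 and 69.4 TPM after BMP6. Pdgfra, which marks fibro-adipogenic progenitors, reached at most 0.164 TPM and Dcn at most 1.92 TPM. Ly6a, of the same list, was higher, at 24.1 and 22.4 TPM in the controls and 22.1 and 18.7 TPM after BMP6. Scx, a tenocyte marker, moved the opposite way, at 19.3 and 67.2 TPM in the controls and 17.9 and 82.7 TPM after BMP6. Tnmd, another tenocyte marker, reached at most 0.0232 TPM. The part of these genes and cells in the levels of Gdf15 and Bmp4 was not tested, and in bulk RNA fewer cells of a type and less RNA per cell cannot be told apart.

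**Figure D3:**
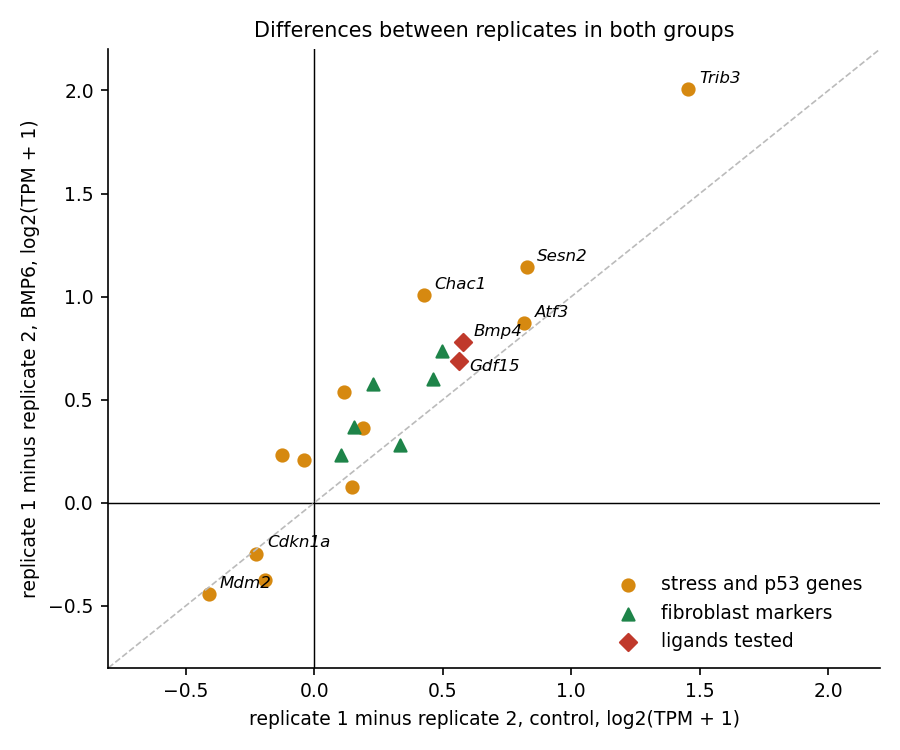
Difference between replicate 1 and replicate 2 on the log2(TPM + 1) scale, in the controls (horizontal axis) and after BMP6 (vertical axis), for the ligands tested (red diamonds), stress and p53 genes (orange circles) and fibroblast markers (green triangles); the dashed line marks equal differences. Gdf15 (0.56 and 0.69) and Bmp4 (0.58 and 0.78) lay close together in the upper right quadrant with Trib3, Sesn2, Atf3 and Chac1, and Cdkn1a and Mdm2 lay in the lower left quadrant.

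Bmp6 encodes the ligand that was added as protein, and in other tissues its mRNA is regulated by iron. Its mean over the 4 libraries was 0.846 TPM, just below the minimum of 1 TPM, so it was not tested. The controls held 1.04 and 0.868 TPM and the BMP6 libraries 0.552 and 0.920 TPM, from 124 to 240 rebuilt reads. The pairs went in opposite directions, with log2(TPM + 1) differences of -0.40 and 0.04, and the lowest library of the 4 was BMP6 replicate 1. Without a filter on low values the log2 difference was -0.18 (95% interval -0.63 to 0.27, adjusted p = 0.981), so either sign lay within the interval.

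The Bmp6 reads need 1 qualification. Its single transcript, ENSMUST00000171970.3, has 7 exons on the plus strand of chromosome 13, and the last 224 of the 1384 bases of exon 7 overlap the 3' end of Txndc5, a protein disulphide isomerase gene on the minus strand that was read at 154 to 193 TPM. The libraries did not keep the strand, so reads within the overlap cannot be told apart. Exons 2 to 6, outside the overlap, had a coverage of 4.75 to 7.70 reads per base and exon 7 had 5.85 to 9.71, and all 7 exons were covered in all 4 libraries. Scaled to TPM, exons 2 to 6 alone gave 1.21 and 0.838 in the controls and 0.759 and 1.11 after BMP6. As for the whole gene, these exons were lower after BMP6 in the replicate 1 pair and higher in the replicate 2 pair. Exon 7, which holds the overlap, was instead lower in both pairs, at 1.52 and 1.56 in the controls and 0.933 and 1.41 after BMP6. Bmp6 was covered outside the overlap in 4 of 4 libraries.

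Bmp2, the close relative of Bmp4, was the only ligand read in every library whose groups did not overlap. It stood at 0.167 and 0.0928 TPM in the controls and at 0.345 and 0.211 TPM after BMP6, from 38.0 and 20.3 rebuilt reads against 76.9 and 45.1. The TPM ratio was 2.06 in the replicate 1 pair and 2.28 in the replicate 2 pair. Non-overlap in this direction was found for 14% of the 28856 entries read in any library, and a ratio of at least 2 in both pairs for 3.53% of the 4023 entries that were read in every library at a mean of 0.1 to 0.5 TPM. At a mean far under 1 TPM it did not enter the test. Without the filter the log2(TPM + 1) difference was 0.18 (95% interval -0.03 to 0.39, adjusted p = 0.981), a scale that understates the change of so low a gene, and with the block 0.18 (95% interval 0.01 to 0.35, adjusted p = 0.645). On rebuilt reads, with limma's voom over entries with at least 10 reads in 2 libraries, the log2 difference was 1.08 (SE 0.52, adjusted p = 1.00), and with the block 1.07 (SE 0.45, 95% interval 0.05 to 2.09, adjusted p = 0.462). The difference of Bmp2 thus did not pass the adjusted p in any of these 4 fits.

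The exons of Bmp2 did not all show the same order. Exon 1 held 4.13 and 1.98 rebuilt reads in the controls and 13.2 and 10.5 after BMP6, and exon 3, the longest, held 23.3 and 17.1 against 57.6 and 30.4. In exon 2 the highest library was control replicate 1, with 10.6 reads, and the others held 1.19 to 6.07. The libraries carried no molecular identifiers, so several of these reads may be copies of one molecule. The window before the Bmp2 start (chr2:133393929-133394078, plus strand) is shown because Bmp2 was the ligand whose groups separated.
Bmp2: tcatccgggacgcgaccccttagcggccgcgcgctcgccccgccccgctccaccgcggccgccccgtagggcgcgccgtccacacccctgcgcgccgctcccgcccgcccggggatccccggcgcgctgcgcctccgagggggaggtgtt
It had the highest share of G and C of the 3 windows shown, 82.0%, with 28 CG pairs against 3 for Gdf15 and 8 for Bmp4, and held none of the 3 motifs.

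**Figure D4:**
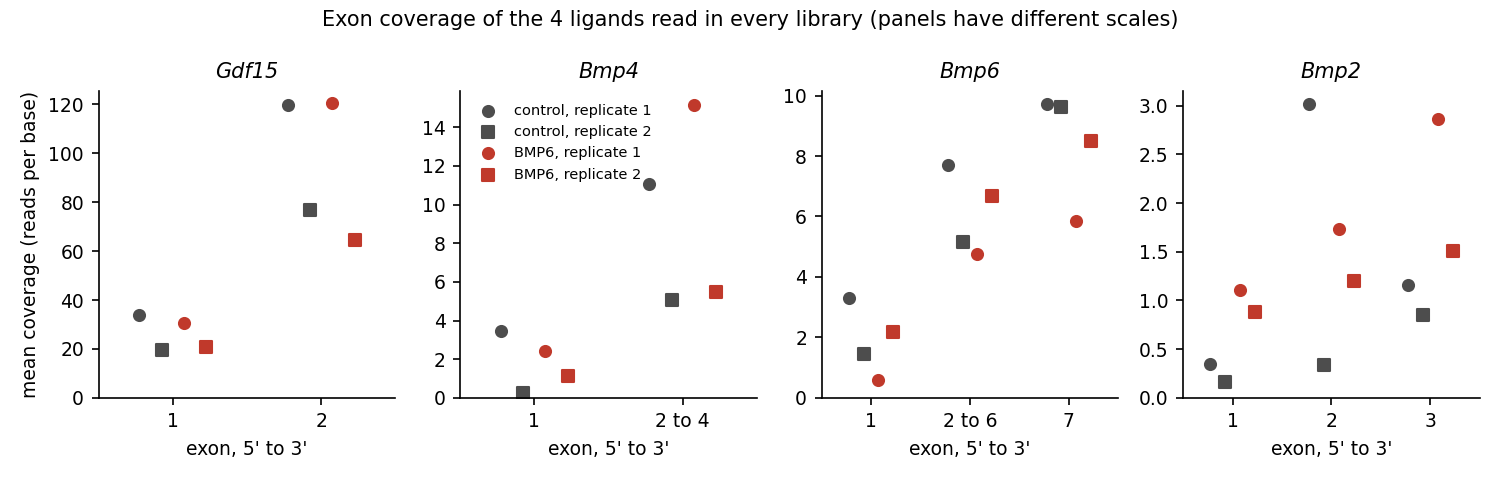
Mean coverage, in reads per base, of the exons of Gdf15, Bmp4, Bmp6 and Bmp2, ordered from the 5' to the 3' end of the transcript, on linear axes that differ between panels; grey points are controls, red points BMP6-treated, circles replicate 1 and squares replicate 2. Coverage was lower over exon 1 than over the last exons of Gdf15, Bmp4 and Bmp6 in each library, and in exon 2 of Bmp2 the control of replicate 1 was the highest of the 4 libraries.

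Gdf6 and Bmp5 had the lowest control means of the ligands that were read. Gdf6, which acts in joint, eye and skull development, had 0.0894 and 0.0713 TPM in the controls and 0.0958 and 0 TPM after BMP6. Its 15.5 to 21.2 rebuilt reads in 3 libraries lay mostly on exon 2, and the BMP6 library of replicate 2 had none. Bmp5, of the subgroup of Bmp6, was listed at 0.0307 and 0.0170 TPM in the controls, which is 7.48 and 4.00 rebuilt reads, and at 0 in both BMP6 libraries. Groups in that order were found for 12% of the entries read in any library, and the Bmp5 values were too low for a fold to be given. Only 2 and 4 of the 7 Bmp5 exons had any coverage in the 2 controls.

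Bmp3, Bmp7, Gdf5 and Gdf10 were listed at 0 in 4 of 4 libraries. At this depth 3 rebuilt reads correspond to at most 0.00756 TPM for Bmp3, 0.0136 TPM for Bmp7, 0.0215 TPM for Gdf5 and 0.00959 TPM for Gdf10. For independent reads this would be the upper limit that a count of 0 allows. Reads of the same pair and copies of a molecule are not independent, so the true levels could lie higher. A listed 0 can be a failed estimate, so 158 genes used by most cells (of the ribosome, the proteasome, RNA polymerase, translation initiation, chaperonin and respiratory chain) were checked, and 2 were at 0, Psma8 and Rpl10l, both known mainly from testis. Such genes are widely expressed, so the check cannot exclude a failed estimate at a weakly expressed locus. In the subgroup of Bmp5, Bmp6 and Bmp7 only Bmp7 was thus listed at 0 in every library, and of Gdf5 and Gdf6 only Gdf5.

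Of 23 other ligands of the TGF-β family 22 were in the table, 6 were tested, 15 stayed under 1 TPM in every library and 7 of these were at 0. Their sum was 119 to 145 TPM per library, of which Tgfb2 and Tgfb3 made up 80.9 to 105 TPM. Tgfb3 had 63.4 and 60.7 TPM in the controls and 64.3 and 84.4 TPM after BMP6, and Tgfb2 had 22.2 and 20.2 TPM in the controls and 24.8 and 20.3 TPM after BMP6. Both encode TGF-β isoforms, which signal mainly through SMAD2 and SMAD3. Of the 6 tested, 4 lay above and 2 below 0 with a median log2 difference of 0.07, and 0 passed the adjusted p in either fit. Among the further BMPs of that list, Bmp8a was the most abundant, with 0.587 and 0.537 TPM in the controls and 0.440 and 0.793 TPM after BMP6, while Bmp10 and Bmp15 were at 0. Bmp8a was thus nearer to Bmp6 than to Bmp2, and its values after BMP6 lay on both sides of the controls.

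The machinery that processes and receives BMPs was present. Of the 7 proprotein convertases and tolloid proteases 4 were tested, 1 above and 3 below 0, with a median log2 difference of -0.06 and 0 past the adjusted p. Pcsk6, a convertase also known as PACE4, had 172 and 205 TPM in the controls and 175 and 194 TPM after BMP6, and Bmp1, which despite its name is a tolloid-type metalloprotease and no ligand, had 31.95 and 32.4 TPM in the controls and 29.6 and 30.1 TPM after BMP6. Of 18 receptors and coreceptors 15 were tested, 9 above and 6 below 0, with a median of 0.11 and 0 past the adjusted p. Hjv (haemojuvelin), a coreceptor best known for BMP6 signalling in the control of iron, was the most abundant of them with 67.2 and 62.6 TPM in the controls and 56.2 and 68.6 TPM after BMP6. Rgmb, a coreceptor of the same family, had 16.1 and 16.9 TPM in the controls and 12.9 and 13.1 TPM after BMP6 (log2 difference -0.32, SE 0.11, adjusted p = 1.00). For GDF15 the receptor gene Gfral was at 0 in 4 of 4 libraries, while its partner Ret had 3.64 and 3.48 TPM in the controls and 3.87 and 3.15 TPM after BMP6.

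A list that mixes secreted BMP antagonists with modulators of other kinds had a higher TPM sum than the 10 ligands. This compares mRNA sums only, and not all of these genes encode proteins that chiefly block BMPs. Its 19 genes summed to 426 to 531 TPM, led by Nbl1. Of these 11 were tested, 10 lay above and 1 below 0 with a median log2 difference of 0.18, and 0 passed the adjusted p. Nbl1, also called DAN, had 274 and 256 TPM in the controls and 309 and 268 TPM after BMP6, and Fstl1, a follistatin-like glycoprotein, had 70.1 and 59.7 TPM in the controls and 75.9 and 71.0 TPM after BMP6. With the replicate block 1 passed it: Nog, which encodes the BMP antagonist noggin, was at 0.671 and 0.702 TPM in the controls and 1.83 and 1.85 TPM after BMP6, a log2(TPM + 1) difference of 0.75 (blocked fit, adjusted p = 0.0410, unblocked fit, adjusted p = 0.427). Thus Nog lay below Bmp4 and Bmp6 in the controls of replicate 1 and below Bmp6 in that of replicate 2. Of the 6 Smad transducers 5 were tested, 4 above and 1 below 0 with a median of 0.11, and 0 passed the adjusted p. Smad1, a direct substrate of BMP receptors, had 38.1 and 40.4 TPM in the controls and 38.9 and 57.9 TPM after BMP6, and Smad2, a substrate of TGF-β and activin receptors, had 13.9 and 17.2 TPM in the controls and 15.4 and 17.0 TPM after BMP6.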

How the data were processed

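RNA-seq libraries (polyA RNA, Smart-seq2 cDNA, unstranded, paired 100-base reads, no molecular identifiers) were aligned by the authors to GRCm39 with STAR 2.7.11a, sorted with SAMtools 1.17 and quantified with StringTie 2.2.1 on GENCODE M32 merged with assembled transcripts. The deposited TPM and FPKM values per entry and the deposited coverage (signal, reads per base) per exon were used. The authors' counts were not used here, so reads were rebuilt as coverage times length over 100. Read-based limits cover counting error only and treat reads as independent, which reads of the same pair are not. Entries with a mean of at least 1 TPM (13128) were tested two-sided with limma 3.58.1 in R 4.3.3 (log2(TPM + 1), mean-variance trend, Benjamini-Hochberg adjustment), after a check on simulated data. A call needed a fold of 2 or 0.5 and an adjusted p under 0.1, and entries without a name, or with symbols of predicted, antisense, microRNA or pseudogene loci, were not called. Same-numbered libraries share a biological replicate in the labels, and their deviations from the group means correlated (r = 0.563), so fits with the replicate block are given. P-values measure the spread between these libraries only. Members and gene lists were chosen with earlier results of these data known. All 10 ligands are named, each pathway list gives its 2 tested members with the highest control mean and any past the adjusted p, marker lists are given mainly as sums, and others were named after their values were seen. Promoter windows came from the GRCm39 genome, with GENCODE M39 gene starts as background. Alternatives were pseudocount, filter, FPKM, quantile scaling, no trend, voom and leaving out each library.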

Additional observations from a re-analysis of the deposited data

How the results depend on the processing

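The number of ligands called stayed at 0 in both directions under each of the 17 alternatives. Most of these fits tested no ligand other than Gdf15 and Bmp4. On the log2(TPM + 1) scale a call needed a difference of 1, where doubling Bmp2 would give 0.16. The 0 calls thus say little about the low ligands. Entries called higher numbered 24, and 15 with a pseudocount of 5, 15 with a mean of at least 5 TPM, 12 without the variance trend, 11 at an adjusted p under 0.05, 0 without a filter, and 60 with voom on entries of at least 10 rebuilt reads in 2 libraries and the replicate block. Entries called lower numbered 0, and 1 with the replicate block, 1 with voom on those entries, 6 with voom and the block, and 1 to 7 when a library was left out. Leaving out a library turned the sign of Gdf15, Bmp4 and Gdf6. The log2 difference of Gdf15 (-0.06) ranged from -0.40 to 0.29, being 0.29 without BMP6 replicate 2 and 0.22 without control replicate 1. That of Bmp4 (0.18) ranged from -0.21 to 0.57, being -0.21 without BMP6 replicate 1 and -0.11 without control replicate 2. No adjusted p fell below 0.802 for Gdf15 or 0.635 for Bmp4. For the low ligands the pseudocount and the scale set the size. Bmp2 (0.18) was 0.71 with a pseudocount of 0.1, 0.041 with 5, 1.08 with voom and 1.07 with voom and the block. Bmp6 (-0.18) was -0.37 with a pseudocount of 0.1, -0.44 with voom, -0.41 with voom and the block, and -0.03 without BMP6 replicate 1. Gdf6 (-0.05) was -0.36 with a pseudocount of 0.1, -2.43 with voom, -1.18 with voom and the block, and 0.02 without BMP6 replicate 2. Bmp5 (-0.03) was -0.31 with a pseudocount of 0.1, -0.0069 with 5, -0.018 on FPKM and -0.024 to -0.044 with a control left out. On the log2(TPM + 1) scale the replicate block cannot change an estimate in this balanced design, so the unchanged directions there carry no information. The voom fits on entries of at least 10 rebuilt reads and the block without a filter were chosen after seeing the data. The ligands at 0 gave no value, and Bmp4 did not enter the fits at a mean of at least 5 TPM or on FPKM. The cause of the changes was not tested. With 2 libraries in each group and 20.3 to 76.9 rebuilt reads for Bmp2, even its TPM ratios above 2 in both pairs did not pass the adjusted p.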
